A study of Mus musculus with 2 samples.

Results

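Mir193a, Mir193b, Mir365-1 and Mir365-2 form 2 paralogous clusters of microRNA (miRNA) genes, and their levels were read from miRNA libraries of mouse heart. The 4 genes were chosen by symbol among the 2202 miRNA genes of the count tables, after the Ensembl identifiers had been matched to GENCODE M21. The data come from 2 libraries of heart tissue, called replicates 1 and 2. Both are from male B6CASTF1/J mice with no treatment named, a first-generation hybrid of a C57BL/6 and a CAST parent, aged 25 days by the age label (the descriptions of both give months as the unit). They form 1 group with no contrast, 1 library per numbered mouse, but 1 donor identifier is given for both, so the spread between them may be technical.

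A miRNA is a short RNA cut from a hairpin, and its seed, bases 2 to 8, pairs with target messenger RNAs and lowers their output. Each hairpin can give a mature miRNA from its left (5p) or right (3p) arm. The miR-193b and miR-365 cluster is known from brown fat, the heat-producing fat tissue that shares a developmental origin with skeletal muscle. In precursors of brown fat it has been described as favouring the fat fate and holding back the muscle programme. Later work in mice found brown fat to form without it, and miR-193a and miR-193b are also studied as suppressors of cell growth.

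Mir193a (ENSMUSG00000065395.1) lies on chromosome 11 of mm10 from 79711969 to 79712034 on the plus strand. Its partner Mir365-2 (ENSMUSG00000065489.1) lies 14365 bp further on, at 79726400 to 79726511 of the same strand. GENCODE M21 places neither inside another gene, and the nearest protein-coding gene, Rab11fip4, ends 13945 bp before Mir193a on the same strand. Mir193b (ENSMUSG00000076972.2, chromosome 16, 13449523 to 13449601, plus strand) and Mir365-1 (ENSMUSG00000065449.1, 13453840 to 13453926, plus strand) are closer together, 4238 bp apart. Both lie within introns of the antisense gene Gm15738 on the minus strand. In RefSeq, on the same build, the long non-coding RNA genes Gm32817 (chromosome 16, 13447952 to 13476317, plus strand) and Gm53058 (13447952 to 13467230, plus strand) each contain both.

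The sequences show which reads can be told apart. The 3p arms are shown first, from RefSeq (GRCm38.p6), 5′ to 3′, with the seed in capitals.
miR-193a-3p: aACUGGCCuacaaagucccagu
miR-193b-3p: aACUGGCCcacaaagucccgcu
miR-365-3p, from both Mir365-1 and Mir365-2: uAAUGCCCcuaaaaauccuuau
The pair miR-193a-3p and miR-193b-3p share the seed, and no other mature miRNA in the table has it. They are identical at 19 of 22 bases and differ by U9C, A20G and G21C, counted from the 5′ end with the miR-193a base first. The longest run of bases they share is 10, so a whole read of one does not match the other without mismatches. By contrast miR-365-3p is the same sequence at both loci, and its seed also occurs in no other gene. The hairpins of Mir365-1 and Mir365-2 share a run of 27 bases, the longest between them, which holds the whole 3p arm (capitals) with 3 bases before and 2 after it.
shared run of Mir365-1 and Mir365-2: ucaUAAUGCCCCUAAAAAUCCUUAUug

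A read that falls within this run matches both loci equally. The row names of the files show 1 separate entry for reads that were placed at several loci, and whole miR-365-3p reads may be there rather than in either gene's count. How such reads were assigned is not given in the sources used here, and how many such reads there were was not tested. The libraries hold RNA below 30 nucleotides, and a read that runs past the shared bases could still be placed. The 5p arms, again with the seed in capitals, do differ.
miR-365-1-5p: aGGGACUUuugggggcagaugug
miR-365-2-5p: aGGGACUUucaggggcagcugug
miR-193a-5p: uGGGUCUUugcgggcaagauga
miR-193b-5p: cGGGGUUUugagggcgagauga
The 5p arms of the miR-365 genes share a seed and differ by U10C, G11A and A19C, with the miR-365-1 base first. Those of the miR-193 genes have different seeds and differ at 5 of 22 bases. Of the windows of 22 bases in a hairpin, 6 of 66 in Mir365-1 and 6 of 91 in Mir365-2 recur in the other, and 0 of 45 in Mir193a and 0 of 58 in Mir193b recur in any of the 2202 annotated miRNA hairpins. Aligned end to end, the hairpins of Mir193a and Mir193b were 63.8% identical and those of Mir365-1 and Mir365-2 65.5%. Columns with a gap count as differences here. The annotated lengths are unequal, 66 and 79 bases for Mir193a and Mir193b, 87 and 112 for Mir365-1 and Mir365-2. These figures therefore do not rank the likeness of the pairs. Between cluster partners the same measure gave 58.7% for Mir193b and Mir365-1 and 45.1% for Mir193a and Mir365-2. The counts are per gene and do not say which arm a read came from.

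Replicate 1 held 4930853 reads assigned to miRNA genes and replicate 2 held 5229819, 37.3% and 36.4% of all reads. Reads placed at several loci made up 41.6% and 37.4%. Levels are assigned counts scaled to a total of 1000000 (CPM), where 1 count is worth 0.203 CPM in replicate 1 and 0.191 in replicate 2. The 356 genes with 10 or more counts in each library are called detected. Intervals are exact at 95% and cover the counting error of reads only. The reads carry no stated molecular identifiers, so amplified copies were not set apart and the intervals may be too narrow. The heart muscle miRNAs Mir208a, Mir208b and Mir499 were all detected, at 4486 CPM summed in replicate 1 and 6512 CPM in replicate 2.

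Mir193b was the most abundant of the 4 genes. It had 689 counts in replicate 1, or 140 CPM (129 to 151), and 574 in replicate 2, or 110 CPM (101 to 119). Its mean was 125 ± 21.2 CPM (SD, n = 2), with replicate 1 the higher and the counting intervals apart. By mean level it ranked 141st of the 2202 genes, above 60.4% of the 356 detected genes, whose median was 60.3 CPM.

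Mir193a, whose 3p arm carries the same seed, had 139 counts in replicate 1, or 28.2 CPM (23.7 to 33.3). In replicate 2 it had 126 counts, or 24.1 CPM (20.1 to 28.7). The mean was 26.1 ± 2.90 CPM (SD, n = 2), the 219th of all genes and above 38.5% of detected genes, and here the intervals overlapped. Both genes together held 168 CPM in replicate 1 and 134 CPM in replicate 2, of which Mir193b made up 83.2% and 82.0%.

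The miR-365 genes were not detected by this rule. Mir365-1 had 5 counts in replicate 1, or 1.01 CPM (0.329 to 2.37), and 10 in replicate 2, or 1.91 CPM (0.917 to 3.52). Mir365-2 had 5 counts in replicate 1, the same 1.01 CPM, and 4 in replicate 2, or 0.765 CPM (0.208 to 1.96). Their means were 1.46 ± 0.635 and 0.889 ± 0.176 CPM (SD, n = 2), at ranks 408 and 461, where 1448 genes had 0 counts in both libraries. The libraries' intervals overlap for each gene, and those of the 2 genes overlap with each other. These are the reads assigned to each gene, and since reads of the shared 3p arm may be missing from them, they do not give the level of miR-365.

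**Figure D1:**
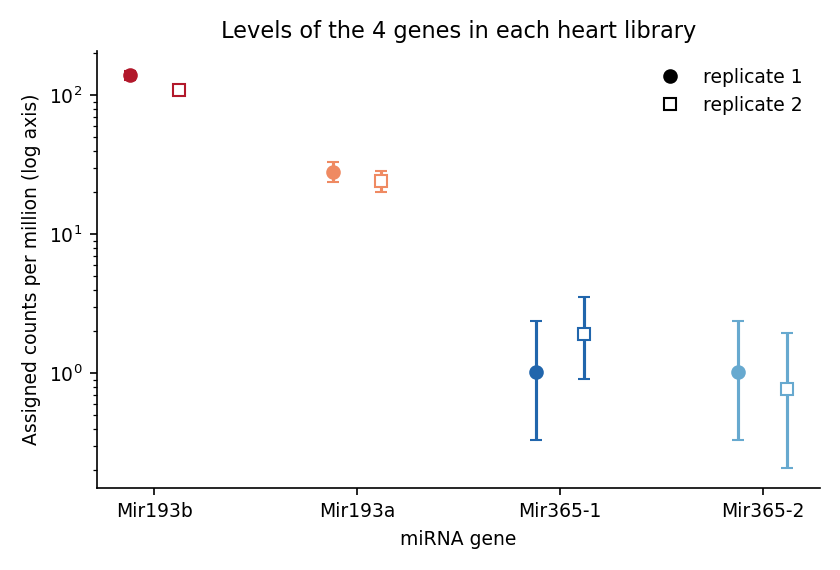
Levels of the 4 miRNA genes in each heart library, in CPM on a log axis; filled circles are replicate 1, open squares replicate 2, and bars are exact 95% counting intervals. Mir193b lies at 140 and 110 CPM and Mir193a at 28.2 and 24.1 CPM, while both miR-365 genes lie between 0.765 and 1.91 CPM.

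**Figure D2:**
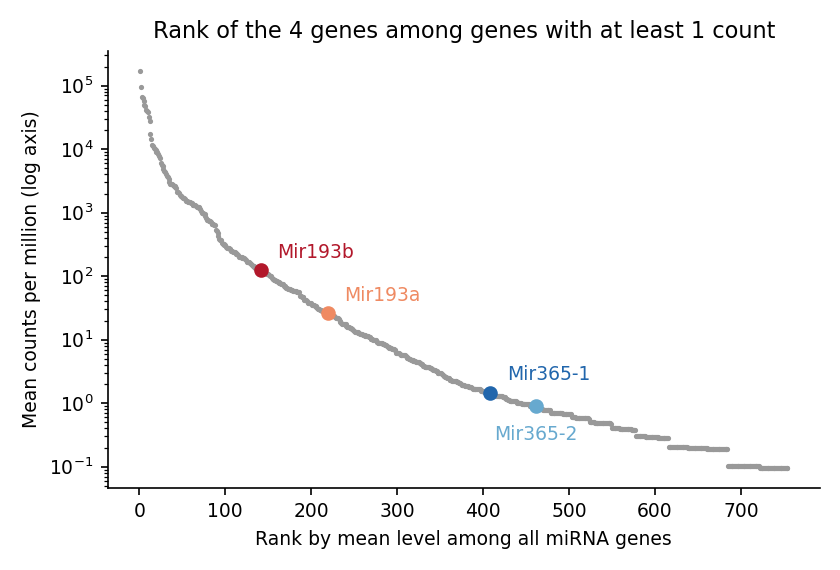
Mean level of each miRNA gene with at least 1 count, in CPM on a log axis, against its rank among all 2202 genes; grey points are genes and coloured points the 4 members. Mir193b is at rank 141, Mir193a at 219, Mir365-1 at 408 and Mir365-2 at 461.

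By assigned reads, which may leave out miR-365-3p and so give no order of miR-365 levels, the order in both libraries was Mir193b, then Mir193a, then the miR-365 genes. Within a library a ratio of 2 genes does not depend on its total. Counts were compared without scaling to hairpin length. Mir193b exceeded its paralog Mir193a by 4.96 times in replicate 1 (4.13 to 5.99) and by 4.56 times in replicate 2 (3.75 to 5.57). These intervals exclude 1, but ratios between genes also carry the unequal ligation of different miRNAs. Mir365-1 over Mir365-2 was 1.00 in replicate 1 (0.230 to 4.35) and 2.50 in replicate 2 (0.721 to 10.9), so these neighbours in the order were not told apart.

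Within the cluster on chromosome 16, Mir193b counts exceeded Mir365-1 counts by 138 times in replicate 1 (58.8 to 426) and by 57.4 times in replicate 2 (31.0 to 120). Within the cluster on chromosome 11, Mir193a exceeded Mir365-2 by 27.8 times (11.6 to 87.0) and by 31.5 times (12.0 to 117). The partners of a cluster thus differed in assigned counts in both libraries. Across clusters, Mir193b over Mir365-2 was 138 in replicate 1 and 144 in replicate 2. Mir193a over Mir365-1 was 27.8 and 12.6.

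The 6 pairs of members were also compared between the libraries by Fisher's exact test, two-sided, with Benjamini-Hochberg adjustment over the 6. The odds of Mir193b over Mir193a in replicate 2 were 0.919 times those in replicate 1 (0.699 to 1.21, exact adjusted p = 0.813). For Mir193b over Mir365-1 they were 0.417 times (0.111 to 1.35), the pair with the smallest p (exact p = 0.121, adjusted p = 0.563). For Mir193a over Mir365-2 they were 1.13 times (0.238 to 5.84, exact adjusted p = 1). For Mir365-1 over Mir365-2 they were 2.50 times (0.341 to 18.8, exact adjusted p = 0.806). No pair passed the threshold of 0.05. For pairs with a miR-365 gene the intervals are wide, and a several-fold difference was not detectable at these counts.

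The 2 counts of each detected gene were set against the library totals in a two-sided exact binomial test, with p-values adjusted by Benjamini-Hochberg over the 356 genes. The test compares these 2 libraries and not conditions. It called 226 of 356 genes (63.5%), 109 of them lower (30.6%) and 117 higher (32.9%) in replicate 2, so a call is common between these libraries. Of the members 2 of 4 could be tested and 1 was called. Mir193b was lower in replicate 2, at a log2 ratio of -0.35 (-0.51 to -0.19, exact adjusted p = 4.04e-05), which is 1.27-fold higher in replicate 1 (1.14 to 1.42). Mir193a had a log2 ratio of -0.23 (-0.59 to 0.13, exact adjusted p = 0.289) and was not called. That the pair moved unequally was not shown, since their odds between the libraries did not pass the test above.

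The difference in Mir193b was below the median size for these libraries. More than 2-fold apart were 63 of 356 detected genes (17.7%), and of the 2 members tested 0. By the size of the log2 ratio Mir193b ranked 209th and Mir193a 247th of the 356 genes, whose median absolute log2 ratio was 0.45. The log2 ratio of Mir365-1 was 0.92 (-0.77 to 2.81) and that of Mir365-2 was -0.41 (-2.74 to 1.81), and both intervals hold 0.

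**Figure D3:**
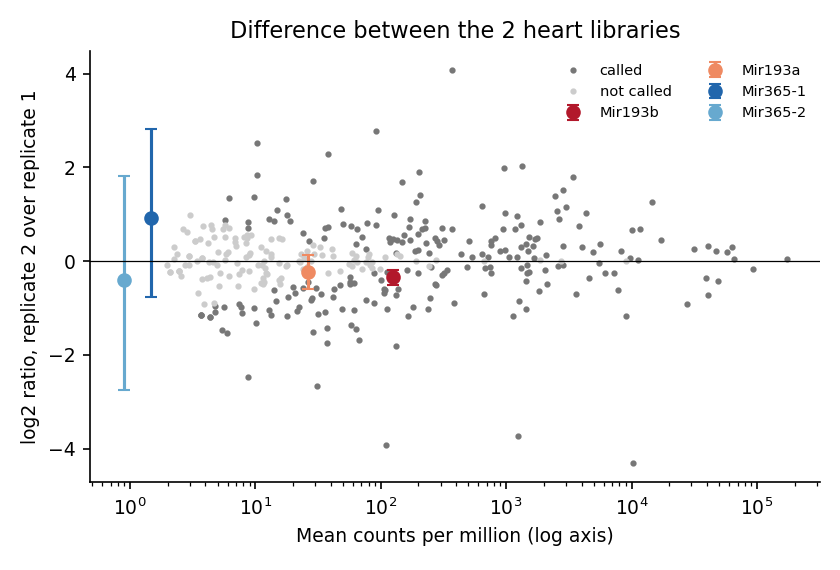
Log2 ratio of replicate 2 over replicate 1 against mean CPM (log axis) for the 356 detected genes, dark where called and light where not, with the 4 members in colour and their exact 95% counting intervals. Mir193b at -0.35 and Mir193a at -0.23 sit within the bulk of the genes, and the intervals of the miR-365 genes span 0.

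Other genes differed between the libraries by far more, among them markers of blood. Mir451a and Mir144, the red cell list, were at 21812 CPM summed in replicate 1 and 1161 CPM in replicate 2, and 2 of 2 were lower in replicate 2. With both genes taken out of the totals the log2 ratio of Mir193b was -0.38 (exact adjusted p = 7.57e-06) and that of Mir193a was -0.26 (exact adjusted p = 0.215). The fibroblast list (Mir21a, Mir214, Mir199a-2 and Mir199a-1) went the other way, with 3416 CPM in replicate 1 and 9524 CPM in replicate 2, 2 of 3 detected genes higher and Mir199a-1 at 0 counts. The endothelial list summed to 56393 and 69423 CPM, nearly all from Mir126a, with Mir126b at 3 counts in each library. The smooth muscle list summed to 30025 and 36447 CPM, and the leukocyte list to 4788 and 5126 CPM with Mir142b at 0 counts. Of these, 1 of 1 detected endothelial gene, 2 of 2 smooth muscle genes and 2 of 4 leukocyte genes were higher in replicate 2, and the leukocyte gene Mir142 was lower. Of the heart muscle list Mir208a was higher and Mir499 lower. Beside each of these lists stand 226 of 356 detected genes called (63.5%), 32.9% higher and 30.6% lower in replicate 2. The part of these cell types in the Mir193b difference was not tested, and in whole tissue fewer cells of a type and less RNA per cell cannot be told apart.

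Among miRNAs described as favouring brown fat, Mir193b lay in the middle by assigned counts. Mir30c-1, Mir30c-2, Mir196a-1, Mir196a-2 and the miR-365 genes have an arm identical at another locus, so reads may be missing from their counts. Of 15 listed genes 11 were detected, and 6 were higher and 3 lower in replicate 2, the latter Mir193b, Mir328 and Mir182. Over all detected genes 226 of 356 (63.5%) were called, 117 higher and 109 lower. The list holds the 4 members, and its median log2 ratio was 0.14, against 0.02 over all detected genes. By mean level Mir193b was the 7th of the 15, and Mir378a, an miRNA of energy metabolism, led at 172355 ± 4608 CPM. Mir328 followed at 1469 ± 62.8 CPM, Mir455 at 1331 ± 1138 CPM and Mir30c-2 at 754 ± 124 CPM (SD, n = 2). Mir455, which has been linked to the start of the brown fat programme, had 2597 counts in replicate 1 and 11171 in replicate 2, a log2 ratio of 2.02 that was called in the opposite direction to Mir193b.

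Among miRNAs described as holding brown fat back, 9 of 12 were detected, and 4 were higher and 2 lower in replicate 2. Over all detected genes 63.5% were called. The median log2 ratio of the list was 0.56. Of the list, Mir93 was at 7775 ± 2311 CPM and lower in replicate 2 (log2 ratio -0.62). Mir27b, described as a repressor of brown fat regulators, was at 4323 ± 2071 CPM and higher (1.02), as were Mir214 at 3020 ± 1630 CPM (1.16) and Mir34a at 2815 ± 1913 CPM (1.51). Mir155 was at 2759 ± 11.0 CPM and was not called. These 5 were named as the highest of the list by mean level, and each lay above Mir193b in both libraries. Beside the 12 listed genes Mir193b would rank 8th, also below Mir106b and Mir27a. Mir494, Mir199a-2, Mir133a-1, Mir133a-2 and Mir199a-1 lay below it, with means from 9.30 CPM down to 0.

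Of the striated muscle list 7 of 10 genes were detected, 2 higher and 1 lower in replicate 2, beside 32.9% higher and 30.6% lower over all detected genes. The median log2 ratio was -0.09. Mir499, encoded in a myosin gene, was at 2846 ± 124 CPM, 22.8 times the mean of Mir193b, and Mir208a at 2462 ± 1556 CPM was 19.7 times that mean. Mir486 was at 952 ± 313 CPM, and Mir208b at 191 ± 0.804 CPM was 1.53 times the mean of Mir193b. These are the 4 highest genes of the list by mean level, and beside the list Mir193b would rank 5th. Mir1a-2 at a mean of 37.8 CPM, Mir206 at 6.22, Mir1a-1 at 2.57 and Mir133b at 1.67 lay below it, as did the Mir133a genes. Mir133a-1 and Mir133a-2, known as inhibitors of the brown fat fate in muscle precursors, had 3 and 30 counts and 6 and 7 counts in replicates 1 and 2. Like the miR-365 genes they are duplicates, so these assigned counts do not give the level of miR-133a.

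Counts of other duplicated genes were set beside those of the miR-365 pair. Of 657 genes matched by symbol that have both arms in the RefSeq table, 581 share no mature arm with another locus, among them Mir193a and Mir193b. A further 57 have an identical copy of 1 arm elsewhere, as Mir365-1 and Mir365-2 do, and 19 have copies of both. Of the 57 genes with 1 shared arm 37 (64.9%) were detected and the median was 53 counts, averaged over the libraries. Mir365-1 and Mir365-2 averaged 7.5 and 4.5 counts and ranked 38th and 41st of the 57, while 12 of the 57 had 0 counts in both libraries. Of the 581 genes with no shared arm 226 (38.9%) were detected with a median of 4.5 counts, and of the 19 with both arms shared 2 (10.5%). Of these 19 genes, 14 had 0 counts in both libraries and the median was 0 counts. Mirlet7c-2, 1 of the 2 detected, had 6207 and 8441 counts. Most genes with 1 shared arm thus had more counts than Mir365-1 and Mir365-2, and whether the shared arm sets the low counts of the pair was not tested. The classes take no account of which arm gives most of a gene's reads, so their genes are not matched to the pair in this. Mir24-1 and Mir24-2, duplicates of the same kind chosen after their values were seen, had 331 and 681 counts in replicate 1 and 599 and 774 in replicate 2; Mirlet7c-2 was chosen in the same way.

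**Figure D4:**
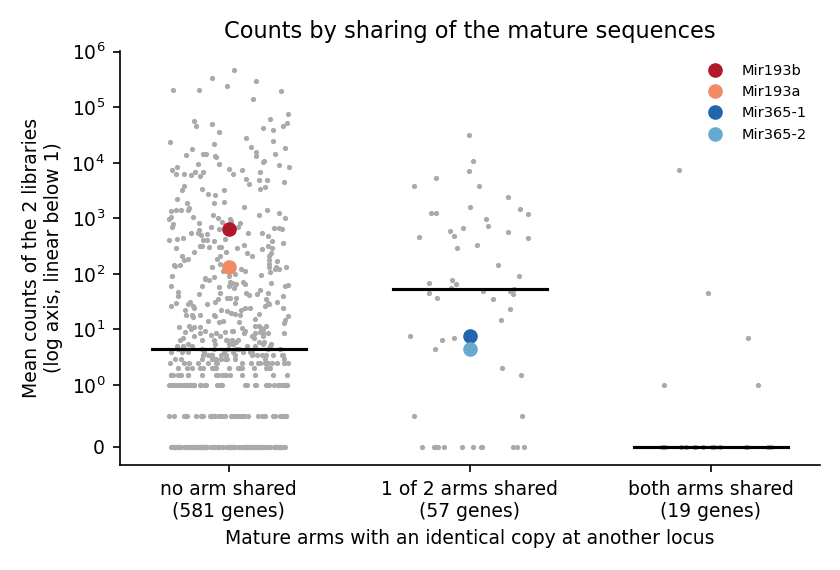
Mean counts of the 2 libraries (log axis, linear below 1) for 657 miRNA genes, by how many of their 2 mature arms have an identical copy at another locus; grey points are genes, bars are medians and the members are in colour. Mir193b and Mir193a stand above the median of 4.5 counts of genes with no shared arm, and Mir365-1 and Mir365-2 below the median of 53 counts of genes with 1 shared arm.

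The detected genes most like the members were taken as the nearest in log2 CPM over the 2 libraries. For Mir193b these were Mir181a-1, with 593 and 535 counts in replicates 1 and 2 at a distance of 0.24, and Mir337, with 816 and 576 counts at 0.24. For Mir193a these were Mir331 and Mir8112, at 0.07 each. Both happened to have 133 counts in replicate 1 and 129 in replicate 2, though they lie on chromosomes 10 and 6. With 2 libraries this likeness rests on 2 values per gene.

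All reads of the 4 members lay on the strand of the gene, and the opposite-strand column listed 0 counts for each in both libraries. Their unstranded counts equalled those of the gene's own strand.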

How the data were processed

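The 2 miRNA libraries of heart, from separately numbered mice but with 1 donor identifier, were analysed as 1 group. The authors deposited raw counts of reads for each miRNA gene, unstranded and by strand, with a text that names mm10 and GENCODE M21. Which aligner and counter made them is not given in the sources used here. As mm10 is a C57BL/6J sequence, alleles of the CAST parent were aligned to a foreign strain in both libraries. The counts of the gene's own strand were used, and the 4 entries for unmapped, several-loci, outside and ambiguous reads were left out of totals.

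Genes with at least 10 counts in both libraries were tested by exact binomial tests (scipy 1.17.1) against each library's share of all assigned reads, at a Benjamini-Hochberg adjusted p of 0.05 over 356 genes; 1 group leaves no contrast for a quasi-likelihood test. The two-sided exact test was tried on simulated counts that held counting error only, which does not cover the further spread between these libraries. edgeR 4.0.16, which gave a common biological coefficient of variation of 0.386 between the libraries, supplied TMM scaling, and DESeq2 1.42.0 size factors. Intervals are Clopper-Pearson for ratios, conditional exact for odds between the libraries, and Poisson for levels. The odds ratios themselves are cross-products of the counts. Mature sequences came from RefSeq, and the hairpins of all 4 members were identical in GENCODE.

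The members and gene lists were chosen with earlier results of these data known. Named genes are the members, the 2 nearest genes of each detected member, and up to 4 genes of each list by mean level; further genes were named with their values known. Alternatives changed the scaling, count minimum, strand column, denominator and gene length, or left out a library.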

Additional observations from a re-analysis of the deposited data

Results flagged for a closer look

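Signal appeared in an entry that the comparisons do not use. Reads placed at several loci numbered 5497619 in replicate 1 and 5375745 in replicate 2, or 1.11 and 1.03 for each assigned read. Whether reads of miR-365-3p, identical at Mir365-1 and Mir365-2, are among them was not tested, since the entry is a total with no gene names.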

How the results depend on the processing

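Mir193b was lower in replicate 2 and called under each alternative run, with log2 ratios from -0.39 (TMM) to -0.26 (DESeq2 size factors, which came out as 1 for both libraries and so leave the counts unscaled), and Mir193a was lower and not called under each, from -0.27 to -0.14. Setting aside Mir451a and Mir144 was an alternative chosen after seeing the data. Without a count minimum the tests of Mir365-1 and Mir365-2 gave exact adjusted p of 0.523 and 0.929. Genes called were 242 of 754 (32.1%) without a count minimum and 180 of 222 (81.1%) with at least 100 counts, against 226 of 356 (63.5%), and 201 to 221 under the others. Genes over 2-fold numbered 36 with at least 100 counts in both libraries, against 63, as fewer genes were tested. Levels depend on the denominator: scaled to 1000000 of all reads Mir193b was at 46.1, Mir193a at 9.65, Mir365-1 at 0.537 and Mir365-2 at 0.328. With the smaller total of unstranded counts, Mir193b was at 171.7 CPM, Mir193a at 36.0 and Mir365-2 at 1.22. Leaving out a library gives the other's level, which with 2 libraries says nothing of stability. Dividing by gene length left the ratios of all 6 pairs inside their counting intervals. Depth limits the miR-365 genes, whose 4 to 10 counts per library leave intervals several-fold wide. No paired analysis was possible because there is 1 group.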
